A study of Mus musculus with 12 samples.

Results

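Heat shock transcription factors, their HSP110 and BAG partners and the small heat shock proteins were examined in undifferentiated spermatogonia from control and cryptorchid mouse testes. The 10 genes, chosen by name, were *Hsf1*, *Hsf2*, *Hsf4*, *Hsph1*, *Bag3*, *Hspb1*, *Cryab*, *Hspb7*, *Hspb8* and *Hspb11*, and all 10 were rows of the table of 21859 protein-coding genes. RNA was measured in 12 libraries, of which 5 were from control and 7 from cryptorchid testes. In GFRa1-EGFP reporter mice 8 to 10 weeks old, the left testis had been fixed to the abdominal wall, and the right testis, left in the scrotum, served as the control. Cells were taken 10 days later by sorting for GFRa1-EGFP, which reports the GDNF receptor gene *Gfra1* of stem-type spermatogonia, and against KIT, a surface marker of differentiation. The labels give the genotype of the control libraries as WT and of the other libraries as Cryptorchid, and no allele other than the reporter is named for either group. Collagenase digestion lasted 9 min in both groups but ran at 32°C for control and at 37°C for cryptorchid testes, and the effects of this temperature and of the position of the testis cannot be told apart. The libraries are not assigned to mice in the sources used here, and *P*-values measure the spread between these libraries.

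When proteins unfold, HSF1 assembles into trimers, binds heat shock elements in DNA and switches on chaperone genes. The HSP110 protein HSPH1 and the BAG protein BAG3 both act on HSP70 as nucleotide exchange factors, and HSPH1 also helps to pull aggregated proteins apart. Small heat shock proteins hold unfolded proteins without using ATP, and HSPB8 works with BAG3 to send them to autophagy. The testis lies in the scrotum below body temperature, and male germ cells are sensitive to the warmth of the abdomen.

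Heat shock elements are arrays of the unit GAA and its inverse TTC at a spacing of 5 bases. The promoter windows of RefSeq (GRCm38.p6, which is mm10, from 250 bases before to 50 bases after a transcription start) were searched on both strands for a two-unit element, GAANNTTC or TTCNNGAA, and for a three-unit element, GAANNTTCNNGAA or its other strand TTCNNGAANNTTC, in which the two-unit element is contained. The two-unit element stood in 15.1% and the three-unit element in 0.603% of the 32851 windows. Windows were given for 7 of the 10 genes, not for *Hsf1*, *Hsf4* or *Cryab*. A two-unit element was found for *Hsph1*, *Bag3*, *Hspb1* and *Hspb8*, and a three-unit element for *Hsph1* alone among them. These stretches of 30 bases are shown because they hold the elements found, and *Chordc1* is added as the gene whose pattern over the libraries was most like that of *Hsph1*. Capitals mark the units, and a match is a description of the letters, not a measured binding site.
*Hsph1*, chr5:149636280-149636309, minus strand: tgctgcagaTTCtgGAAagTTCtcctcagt
*Bag3*, chr7:128523603-128523632, plus strand: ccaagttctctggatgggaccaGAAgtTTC
*Hspb1*, chr5:135887791-135887820, plus strand: cttcaacaagaGAAgtTTCcagatgggggc
*Hspb1*, chr5:135887811-135887840, plus strand: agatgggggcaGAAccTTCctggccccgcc
*Hspb8*, chr5:116422844-116422873, minus strand: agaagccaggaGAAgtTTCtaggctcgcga
*Chordc1*, chr9:18292259-18292288, plus strand: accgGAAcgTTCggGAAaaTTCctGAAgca
The element of *Hsph1* lay 16 to 28 bases after a start at 149636315, within an exon of the 5′ UTR. The elements of *Hspb1* lay upstream of its start, from -117 to -110 and from -97 to -90, whereas those of *Bag3* (43 to 50) and *Hspb8* (3 to 10) lay just after it, in 5′ UTR exons. *Chordc1* carried 5 units in a row across its start, from -4 to 19.

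The deposited values are log2 RPM, the reads of a gene scaled to a common library total, and the steps between them gave the reads behind each value. A gene without reads is listed at a value that stands for 0.9 reads, which lies at a different log2 RPM in each library, so read numbers are given for the rare genes. The control libraries held 4511730 to 24345368 reads on genes and the cryptorchid libraries 3306771 to 20027902. Replicates 1 to 3 of both groups were set apart from replicates 4 and above by more even read numbers among genes with few reads (53.2% to 60.8%, against 48.2% to 50.5%) and by a lower share of reads on genes (74.5% to 94.0%, against 94.8% to 99.9%), and these are called the first and the second technical set. Genes were called higher or lower at a change of at least 2-fold with an unadjusted limma *P* under 0.05, the thresholds of the study, among 16932 genes with enough reads. Of 10 markers of undifferentiated spermatogonia none was called, and their summed level was 1155 to 1716 RPM in control and 1302 to 1975 RPM in cryptorchid libraries. With 5.92% of all genes called in either direction, a list of 10 says little by this. The largest difference, -0.97 for *Nanos3* (exact rank sum *P* = 0.106), missed the call by the fold threshold alone. It was past 2-fold under quantile normalization (-1.01) and median centring (-1.03). Of the 10 markers, 4 had a higher mean in cryptorchid libraries.

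Among the 10 genes, the HSP110 gene *Hsph1* was higher in cryptorchid spermatogonia, the small heat shock protein genes *Hspb8* and *Hspb7* appeared at low read numbers mostly in cryptorchid libraries, and the factors *Hsf1* and *Hsf2* were not called. Among all genes tested, 3.56% were called higher and 2.36% lower. *Hspb7* and *Hspb8* were called higher, but they passed the filter only through the cryptorchid group, so their calls are not read against that share. Of the other 7 genes that passed the filter, *Hsph1* was called higher and 0 were called lower. Of these 7 genes, *Hsph1* alone had an unadjusted limma *P* under 0.05, beside 9.48% of all genes tested. By the exact rank sum test *Hsph1* alone was under 0.05 as well, beside 9.63% of all genes tested. The same held with a common floor for libraries without reads, beside 9.31% of all genes. *Hspb7* and *Hspb8* were under 0.05 by both tests on the deposited values, which is not read against those shares. With the common floor their exact rank sum *P* was 0.213 and 0.0808. At a Benjamini-Hochberg limma adjusted *P* under 0.05, 0 of the 9 were called, beside 0.00591% of all genes called higher and 0.00591% called lower. The median difference over all genes tested was 0.10 on the log2 scale.

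**Figure D1:**
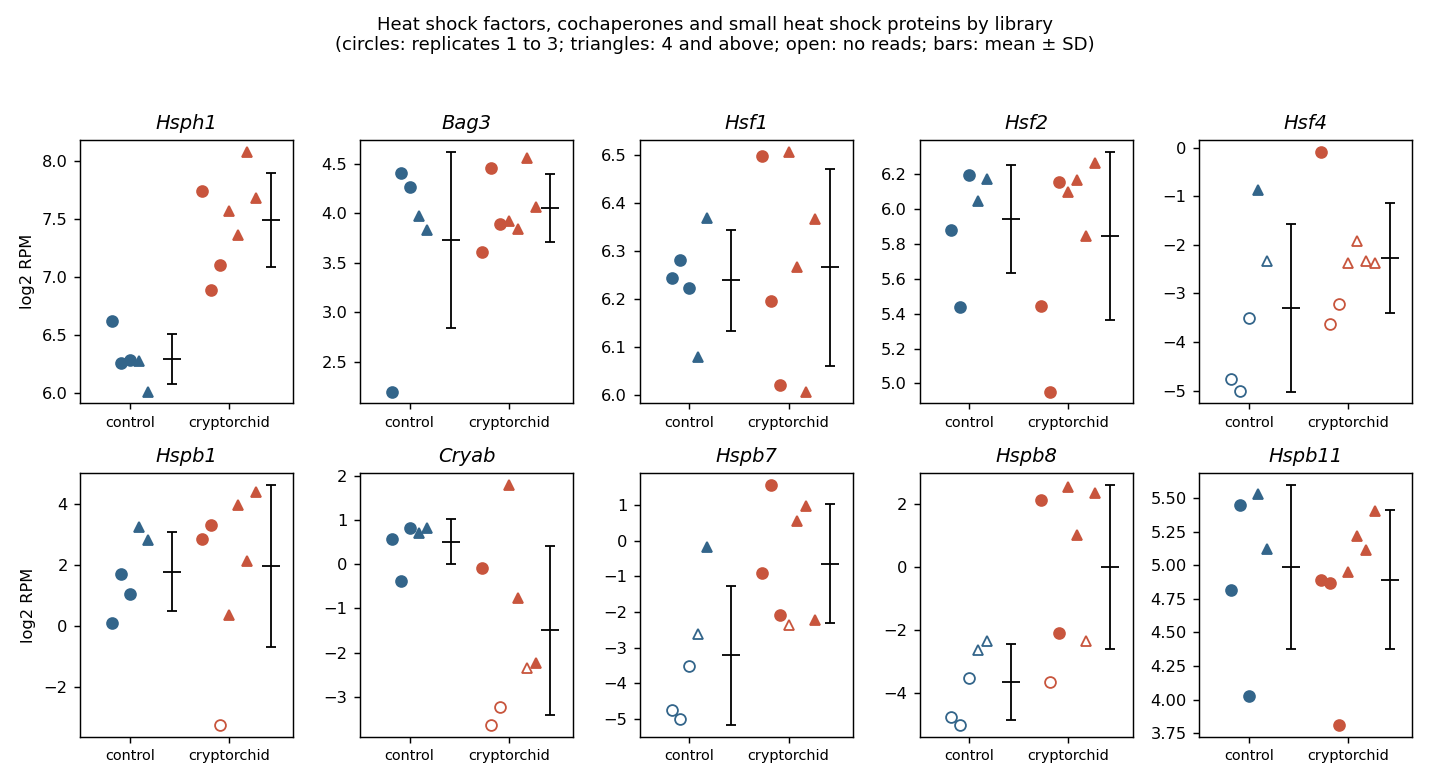
Log2 RPM of the 10 genes in each library, control in blue (n = 5) and cryptorchid in red (n = 7), with circles for replicates 1 to 3, triangles for replicates 4 and above, open symbols for libraries without reads of the gene, and bars for the mean ± SD; the vertical axes differ between genes. For *Hsph1* the cryptorchid libraries, from 6.89, all lie above the control libraries, up to 6.62, while the groups overlap for the other genes.

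*Hsph1* encodes the cytosolic HSP110 chaperone, a relative of HSP70 that reloads it with ATP. In the 5 control libraries it was at 6.62, 6.26, 6.29, 6.28 and 6.02 log2 RPM. In the 7 cryptorchid libraries it ran from 6.89 to 8.08, with a median of 7.57. Control replicate 5 was the lowest library and cryptorchid replicate 6 the highest, and the lowest cryptorchid library, replicate 2, was above the highest control library, replicate 1. Such a separation upwards was found for 0.555% of the genes tested. The mean was 6.29 ± 0.215 (SD, n = 5) in control libraries and 7.49 ± 0.404 (SD, n = 7) in cryptorchid spermatogonia, a difference of 1.20 (SE 0.246, 95% interval 0.68 to 1.72) or 2.30-fold. The limma *P* was 0.000126, the rank 14 among all genes, and the limma adjusted *P* 0.129, and the exact two-sided Wilcoxon rank sum test gave *P* = 0.00253, the smallest that the 792 splits of 12 libraries into 5 and 7 can give. Between 292 and 4782 reads stood behind each value. Because the cells were measured in bulk, more RNA per cell and a greater share of cells with the RNA cannot be told apart.

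The groups were separate for *Hsph1* in both technical sets. In the first set, with 3 libraries a group, the difference was 0.86, which is under 2-fold, and in the second set, with 2 control and 4 cryptorchid libraries, it was 1.53. With a term for the set the limma adjusted *P* was 0.0495, and it was under 0.05 in 3 of 26 fits, over which it ran from 0.00328 to 1.0.

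*Hspa4*, which encodes the other widely expressed cytosolic HSP110 protein, was at 8.63 ± 0.756 (SD, n = 5) in control libraries and 8.66 ± 0.484 (SD, n = 7) in cryptorchid libraries. *Hsph1* stood at -2.33 relative to *Hspa4* in control and at -1.17 in cryptorchid libraries on the log2 scale. This ratio ran from -2.94 to -1.23 in control and from -1.97 to -0.51 in cryptorchid libraries, so that the groups overlapped. The difference of 1.17 had an exact two-sided rank sum *P* of 0.0303, which became 0.0909 after adjustment over the 3 ratios computed. The other ratios moved little, with *Hsf2* to *Hsf1* at a difference of -0.13 (exact *P* = 0.755) and *Hspb11* to its partner *Ift27* at 0.04 (exact *P* = 0.639, both 0.755 after adjustment).

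Likeness to *Hsph1* was taken as the root mean square difference of log2 RPM, each gene centred on its own mean over the 12 libraries, among 14540 genes with at least 20 reads per library on average. The nearest gene was *Chordc1*, which encodes a heat-inducible cochaperone of HSP90, at 0.271, followed by *Itfg1* at 0.296. Of the other 9 genes examined here, *Hsf1* was nearest to *Hsph1*, at 0.669. *Chordc1* was at 5.33, 4.63, 5.01, 5.05 and 4.63 log2 RPM in control libraries and at 5.48 to 7.0 (median 6.35) in cryptorchid libraries. As for *Hsph1*, no cryptorchid library of *Chordc1* fell below a control library, and within the groups control replicate 1 was the highest and cryptorchid replicate 2 the lowest for both genes. The difference for *Chordc1* was 1.39 (SE 0.30, limma adjusted *P* = 0.129, exact *P* = 0.00253). Because *Chordc1* was picked for its likeness to *Hsph1* over these same 12 libraries, the shared separation, order and difference follow largely from that choice. They are not a separate finding.

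**Figure D2:**
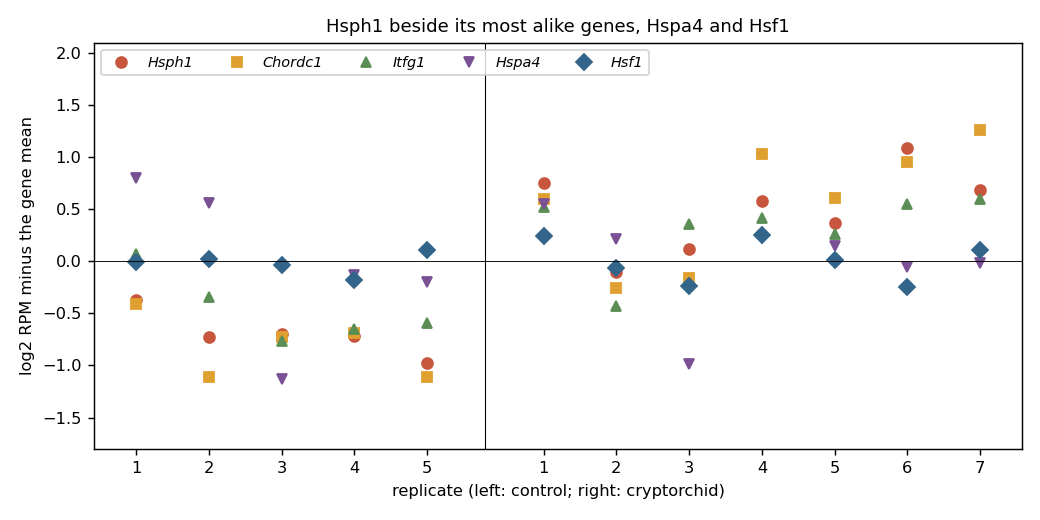
Log2 RPM minus the gene's mean over the 12 libraries, for *Hsph1*, its nearest genes *Chordc1* and *Itfg1*, its relative *Hspa4* and the factor gene *Hsf1*, by replicate, with control libraries on the left and cryptorchid libraries on the right. *Hsph1* and *Chordc1* stay below 0 in all control libraries and lie above it in most cryptorchid libraries, while *Hsf1* runs from -0.25 to 0.25 around its mean.

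*Hsf1* encodes the main stress-responsive factor, which is controlled largely at the level of the protein. It was at 6.24, 6.28, 6.22, 6.08 and 6.37 log2 RPM in control libraries. In cryptorchid libraries it ran from 6.01 to 6.51 with a median of 6.27, and the control values lay within this range. The difference of 0.03 (SE 0.213, 95% interval -0.42 to 0.47, limma adjusted *P* = 0.980) turned negative under another scaling, to -0.04 by median centring and -0.02 by quantile normalization, and the interval leaves room for changes of up to 1.39-fold.

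*Hsf2* encodes a second factor, which is abundant in the testis and acts in germ cell development. It was at 5.88, 5.44, 6.19, 6.04 and 6.17 log2 RPM in control libraries, and ran from 4.95 to 6.26 with a median of 6.10 in cryptorchid libraries. Cryptorchid replicate 2 was the lowest library, and the groups overlapped over nearly the whole range. The difference was -0.10 (SE 0.277, 95% interval -0.68 to 0.48, limma adjusted *P* = 0.933).

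*Hsf4*, the factor of the lens of the eye, had reads in only 1 control library (3 reads in replicate 4) and 1 cryptorchid library (21 reads in replicate 1). It did not pass the filter, and no fold is given from so few reads. The remaining relatives were not called either. *Hsf3*, *Hsf5*, *Hsfy2*, *Hsbp1* and *Hsbp1l1* had a median difference of 0.99, with 0 of 5 called, and the most abundant by RPM was *Hsbp1*, whose product binds HSF1, at 7.32 in control and 7.38 in cryptorchid libraries. *Hsf5*, a factor of meiotic germ cells, was at 2.23 ± 1.03 (SD, n = 5) and 3.43 ± 0.915 (SD, n = 7) log2 RPM (limma adjusted *P* = 0.533, exact *P* = 0.106).

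*Bag3* encodes the heat-inducible BAG protein that joins HSP70 to HSPB8 and to autophagy. It was at 2.20, 4.40, 4.26, 3.97 and 3.83 log2 RPM in control libraries and at 3.60 to 4.55 (median 3.92) in cryptorchid libraries. Control replicate 1, with 112 reads, lay far below the other libraries, all of which were within 1 log2 unit of each other. The difference of 0.32 (SE 0.409, 95% interval -0.54 to 1.17, limma adjusted *P* = 0.846) became -0.07 without that library. Of the other BAG genes, *Bag1*, *Bag2*, *Bag4*, *Bag5* and *Bag6*, 0 of 5 were called, and their median difference was -0.28. The most abundant, *Bag6*, was at 7.59 ± 0.529 (SD, n = 5) and 7.31 ± 0.765 (SD, n = 7) log2 RPM.

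The small heat shock proteins were rarer. *Hspb1* (HSP27), which is induced by heat in many cells, had 26, 95, 21, 52 and 32 reads in control libraries, that is 0.09, 1.72, 1.04, 3.24 and 2.83 log2 RPM. In cryptorchid libraries it had 163, 112, 0, 6, 53, 20 and 97 reads, and its level ran up to 4.38 log2 RPM with a median of 2.87. The second-set control libraries were above the first-set ones, and cryptorchid libraries were found above, within and below the control range. The difference was 0.19 (SE 1.09, 95% interval -2.10 to 2.47, limma adjusted *P* = 0.969). It turned to -0.13 with a term for the technical set, and without cryptorchid replicate 3, which had no reads, it was 1.05, which was not called either.

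*Cryab*, the αB-crystallin of lens and muscle, had 36, 22, 18, 9 and 8 reads in control libraries and 21, 0, 0, 16, 2, 0 and 1 reads in cryptorchid libraries. All 5 control libraries had reads, at -0.39 to 0.83 log2 RPM, whereas 3 of the 7 cryptorchid libraries had none and 1, replicate 4, lay above all others at 1.79. The difference of -2.0 (SE 0.957, 95% interval -4.02 to 0.01) had a limma *P* of 0.0509 and an exact *P* of 0.0732, so *Cryab* was not called. It was called lower under median centring (-2.07), quantile normalization (-2.22), a set term (-2.18) and voom (-2.22), and without control replicate 2 (-2.23), cryptorchid replicate 1 (-2.24) or cryptorchid replicate 4 (-2.55). It was smaller and not called with array weights (-1.19), a common floor (-1.47) and log2(RPM + 1) (-0.64). Measured by mean RPM, which the 0.9 reads do not enter, it was 1.483 ± 0.419 (SD, n = 5) in control libraries and 0.742 ± 1.25 (SD, n = 7) in cryptorchid libraries. Of its exons, 252 bases (17.0%) overlap *Hspb2* on the other strand, and reads there cannot be told apart because no source names a strand setting. *Hspb2* itself had at most 2 reads in a library.

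*Hspb8*, the partner of BAG3, had no reads in any of the 5 control libraries, which held 73340206 reads in all by the totals that the RPM values imply. In cryptorchid libraries it had 99, 0, 2, 27, 7, 0 and 24 reads. Replicates 1, 4, 5 and 7 exceeded 3 reads and replicates 2, 3 and 6 did not, so both groups held libraries at the floor. The mean was 2.53 ± 2.57 RPM (SD, n = 7) in cryptorchid libraries, which is 7.30-fold the mean RPM that 3 reads in each control library would give. That value covers counting error only, not the spread between libraries, so it is not a lower bound of a fold. The gene was called on the deposited values, in which libraries without reads stand at floors set by their depth. The exact *P* was 0.0808 when all libraries were given the highest of the library floors. On the deposited values the difference was 3.24 in the first set and 3.37 in the second, with all control values at floors, so neither is a fold.

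*Hspb7*, the cardiovascular small heat shock protein, had 0, 0, 0, 0 and 4 reads in control and 12, 33, 2, 0, 5, 9 and 1 reads in cryptorchid libraries. The mean RPM was 0.177 ± 0.396 (SD, n = 5) and 1.06 ± 1.11 (SD, n = 7), and 4 of 7 cryptorchid libraries but 1 of 5 control libraries had over 3 reads. The only control library with reads lay within the cryptorchid range. The difference on the deposited values was 2.57 (SE 1.08). With a common floor the difference was 1.06 and the exact *P* 0.213. The difference was 3.95 in the first set and 0.63 in the second, where it was not called, and the call was also lost with array weights (1.38), a common floor, log2(RPM + 0.1) (1.70), log2(RPM + 1) (0.63) and quantile normalization (1.78), and when control replicate 1, 2 or 3 or cryptorchid replicate 2, 5 or 6 was left out. *Hspb7* is on the study's list of developmental genes that lost the repressive histone mark H3K27me3 by ChIP-seq and rose in mRNA. The mRNA part of that list comes from these libraries, so the RNA direction of *Hspb7* there is not independent. The ChIP-seq data are separate and were not examined here.

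By the measure used for *Hsph1*, the genes most like *Hspb8* were *Lcn2*, a secreted lipocalin, at 1.29 and *Jam2*, a junctional adhesion molecule, at 1.54. Those most like *Hspb7* were *Scn2a*, a neuronal sodium channel, at 1.19 and *Awat2*, an enzyme of wax ester synthesis, at 1.21. All 4 distances were greater than that of *Chordc1* from *Hsph1*. *Hspb8* had reads in 0 of 5 control and 5 of 7 cryptorchid libraries, and *Hspb7* in 1 and 6. The libraries without reads stand at floors set by depth, and both genes passed the filter only through the cryptorchid group. These likenesses follow in part from the floors and are not a finding about the genes.

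Small heat shock proteins are also expressed in muscle and vessel walls, and some markers of such cells were called. Over all genes tested, 5.92% were called in either direction. In the list of peritubular myoid and smooth muscle cells, *Des* was called higher and *Actg2* lower among 5 tested, and the summed level was 24.8 to 56.6 RPM in control and 4.10 to 45.7 RPM in cryptorchid libraries. Of 6 endothelial markers *Cdh5* and *Tie1* were called higher, with sums of 24.6 to 43.4 RPM and 30.01 to 61.5 RPM. Of 6 macrophage markers tested *Mrc1* was called higher, with sums of 3.62 to 25.2 RPM and 11.2 to 37 RPM. *Des* had reads in 2 control libraries and *Tie1* in 1. Like *Hspb7* and *Hspb8*, both passed the filter only through the cryptorchid group, so their calls are not read against that share. The part of these cells in the reads of *Hspb7*, *Hspb8* and *Cryab* was not tested.

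*Hspb11* (IFT25) is named as a small heat shock protein but is a subunit of the intraflagellar transport complex B. It was at 4.81, 5.45, 4.02, 5.53 and 5.12 log2 RPM in control libraries and at 3.81 to 5.41 (median 4.95) in cryptorchid libraries. Replicate 3 was the lowest library of both groups, and the groups overlapped nearly wholly. The difference was -0.09 (SE 0.341, 95% interval -0.81 to 0.62, limma adjusted *P* = 0.95). Among 16 other genes of the complex 0 were called and 12 had a higher mean in cryptorchid libraries, as did 56.7% of all genes tested, with a median of 0.25. *Ift80* came nearest, with a difference of 0.85 (limma adjusted *P* = 0.359, exact *P* = 0.0177), while the most abundant by RPM, *Ift74*, differed by 0.55 (limma adjusted *P* = 0.667).

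**Figure D3:**
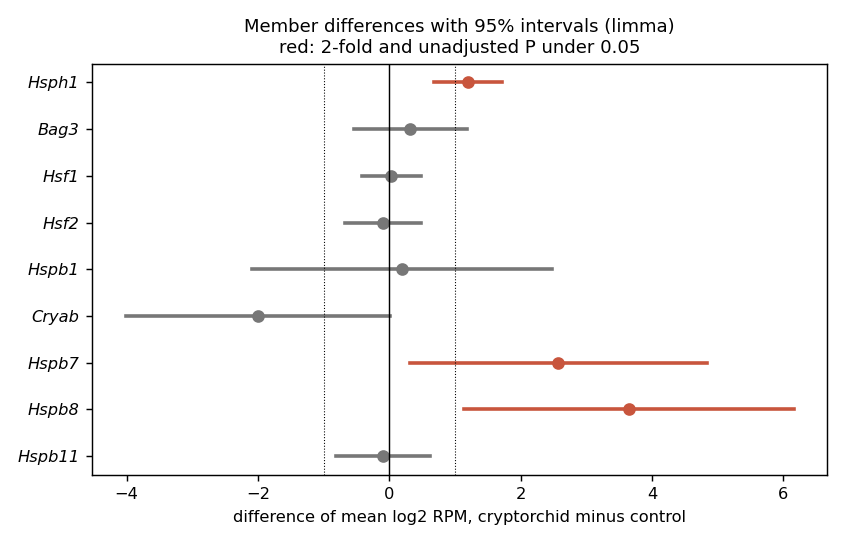
Difference of mean log2 RPM, cryptorchid minus control, for the 9 genes tested, with 95% intervals from limma; red marks genes called at 2-fold and an unadjusted *P* under 0.05, and dotted lines mark 2-fold. *Hsph1* has a narrow interval of 0.68 to 1.72, and the wide intervals of *Hspb7* and *Hspb8* rest on values set at 0.9 reads where a library had no reads, so their sizes are not estimates of a fold.

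Per kilobase of exon, *Hspb11* was the most abundant of the 10 genes in control spermatogonia at 16.3 ± 5.89 RPM per kb (SD, n = 5), followed by *Hsph1* at 10.9 ± 1.66 and *Hsf1* at 10.7 ± 0.765, whose library values overlapped one another. *Hsf2* at 6.52 ± 1.27, *Bag3* at 5.84 ± 2.51 and *Hspb1* at 4.46 ± 3.44 overlapped likewise, and all *Hsf1* values (9.53 and above) were over all *Hsf2* values (up to 7.61). *Cryab* followed at 1.0 ± 0.283, and *Hspb7*, *Hsf4* and *Hspb8* were at or near 0. In cryptorchid spermatogonia *Hsph1* stood first at 25.6 ± 7.04 RPM per kb (SD, n = 7; 16.3 to 37.3), ahead of *Hspb11* at 15.0 ± 4.29 (6.78 to 20.5) and *Hsf1* at 10.9 ± 1.54, with *Hsph1* and *Hspb11* overlapping and *Hsph1* above *Hsf1* (up to 12.8) in all libraries. *Hspb8* was at 1.30 ± 1.32, *Cryab* at 0.502 ± 0.844 and *Hspb7* at 0.381 ± 0.401, with overlapping values. Lengths were the union of all annotated exons of a gene, 7099 bases for *Hsf1* and 2071 for *Hspb11*. The order between genes depends on these lengths, and reads were counted over another annotation, that of UCSC. By mean RPM without a length, *Hsph1* (79.1), *Hsf1* (75.7) and *Hsf2* (62.7) were above *Hspb11* (33.8) in control libraries. The 10 genes lie on 7 chromosomes, and *Hsph1*, *Hspb1* and *Hspb8* are all on chromosome 5 (mm10), *Hsph1* at chr5:149614287-149636376, *Hspb1* at chr5:135887919-135889563 and *Hspb8* at chr5:116408491-116422864.

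The other genes of these families and pathways changed about as often as genes in general. The 7 lists held 75 gene names, some of them second names of a gene also listed. Of these names 70 were found among the genes measured, and 68 were tested. Of the 68, 2 were called higher and 2 lower (5.88%), beside 5.92% of all genes in either direction. Among 15 heat-inducible targets of HSF1, *Chordc1* was called, and 11 had a higher mean in cryptorchid libraries, as did 56.7% of all genes tested, with a median of 0.32. The most abundant by RPM was *Hsp90aa1*, the inducible HSP90, at 10.56 ± 0.549 (SD, n = 5) and 11.44 ± 0.603 (SD, n = 7) log2 RPM (difference 0.87, limma *P* = 0.0574, exact *P* = 0.0303), and *P4ha1*, a collagen hydroxylase, differed by 0.71 (limma *P* = 0.0216, exact *P* = 0.0101). The HSP40 gene *Dnajb1*, a common readout of heat shock, was at 5.67 ± 0.203 (SD, n = 5) and 5.95 ± 0.314 (SD, n = 7) log2 RPM (limma adjusted *P* = 0.751).

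The HSP110 and HSP70 relatives, with 12 tested, had a median of -0.01, and *Hspa1l*, a testis-specific HSP70 of spermatids, fell by 1.61 (limma *P* = 0.0365, limma adjusted *P* = 0.489), though its exact *P* was 0.149. The call was lost in 7 of 12 fits without 1 library (control replicate 1, 4 or 5 or cryptorchid replicate 1, 2, 3 or 5) and in replicates 4 and above alone (-1.76). The strongly heat-inducible *Hspa1a* and *Hspa1b* had differences of -1.02 (limma adjusted *P* = 0.778) and -0.96 (limma adjusted *P* = 0.684), and they are near-identical copies between which reads can be split. The most abundant by RPM, the constitutive *Hspa8*, was at 9.26 ± 0.974 (SD, n = 5) and 9.89 ± 0.660 (SD, n = 7) log2 RPM (difference 0.63, limma adjusted *P* = 0.682). Of 11 autophagy partners of BAG3 and HSPB8, *Synpo*, an actin-associated protein, rose by 1.79 (limma *P* = 0.0149, limma adjusted *P* = 0.407, exact *P* = 0.0303), and the median was -0.18. The most abundant there, the LC3 gene *Map1lc3b*, differed by -0.31 (limma adjusted *P* = 0.861), and *Sqstm1*, the receptor p62, by -0.78 (limma adjusted *P* = 0.555).

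Among the other small heat shock proteins *Odf1* (HSPB10), a protein of the sperm tail, fell from 4.61 ± 1.41 (SD, n = 5) to 1.91 ± 2.14 (SD, n = 7) log2 RPM (limma *P* = 0.00840, limma adjusted *P* = 0.359), though its exact *P* was 0.0732. *Hspb9*, which is made in the testis, was at 4.78 to 7.85 log2 RPM in control and at 1.27 to 6.77 in cryptorchid libraries (difference -1.85, limma *P* = 0.0587, exact *P* = 0.202). Over all libraries the groups overlapped, but within each set all cryptorchid libraries were below all control libraries, with differences of -2.89 in the first set and -1.87 in the second, and with a term for the set the limma adjusted *P* was 0.0490. Of 7 spermatid markers tested, *Prm1*, *Prm2* and *Tssk6* were called lower, beside 2.36% of all genes tested. The other 4 were not called, among them *Acrv1* (-0.55, exact rank sum *P* = 0.755) and *Spaca1* (-0.55), and 0 of the 7 had a higher mean in cryptorchid libraries. The summed level was 492 to 2702 RPM in control and 13.5 to 1790 RPM in cryptorchid libraries. Whether these markers followed *Odf1*, *Hspb9* and *Hspa1l* from library to library was not tested. The part of spermatid RNA in the values of *Odf1*, *Hspb9* and *Hspa1l* was not tested.

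**Figure D4:**
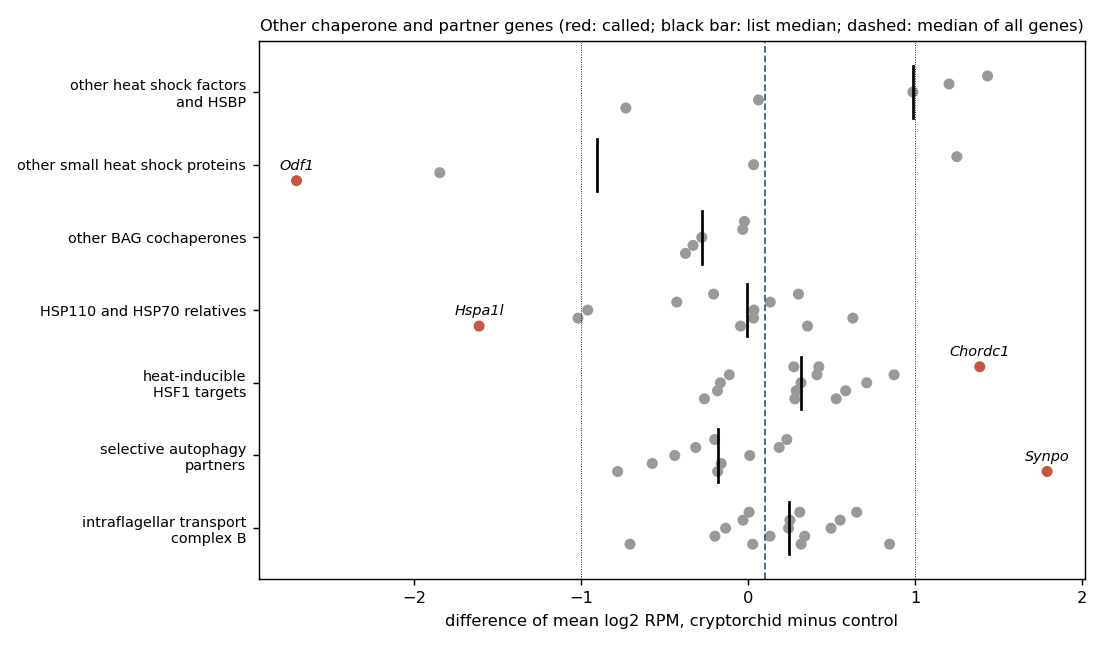
Difference of mean log2 RPM, cryptorchid minus control, for each gene tested in the 7 lists of related genes, 1 point per gene, with a black bar at the list's median, a dashed line at the median of all genes (0.10) and red points for called genes. List medians run from -0.91 for the other small heat shock proteins to 0.99 for the other heat shock factors, and 4 of 68 genes are called.

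The heat shock element itself was set against the changes over all genes. Of 73 tested genes with a three-unit element in a window, 6 were called higher (8.22%) and 3 lower (4.11%), against 3.41% and 2.35% of 13041 tested genes with a window but without the element. The median differences were 0.08 and 0.09. The 6 include *Hsph1*, examined here by name, and *Chordc1*, picked for its likeness to *Hsph1*, so the count is not independent of these genes. Among 12 of the 15 targets of HSF1 with a window, 3 held a three-unit element, and beside *Chordc1* these were *Hspd1* and *Hspe1*, which share 1 element between their starts. *Hspd1* and *Hspe1*, the mitochondrial chaperonins, differed by 0.28 and 0.42 (limma adjusted *P* = 0.847 and limma adjusted *P* = 0.756). The gene with the element among the 10 examined, *Hsph1*, was called higher, and of the 3 with a two-unit element alone, *Hspb8* was called and *Bag3* and *Hspb1* were not. Of the genes whose windows hold neither, *Hspb7* was called, and *Hsf2* and *Hspb11* were not. The calls of *Hspb8* and *Hspb7* rest on floors, with exact rank sum *P* of 0.0808 and 0.213 under a common floor. They are therefore not read against the element.

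**Figure D5:**
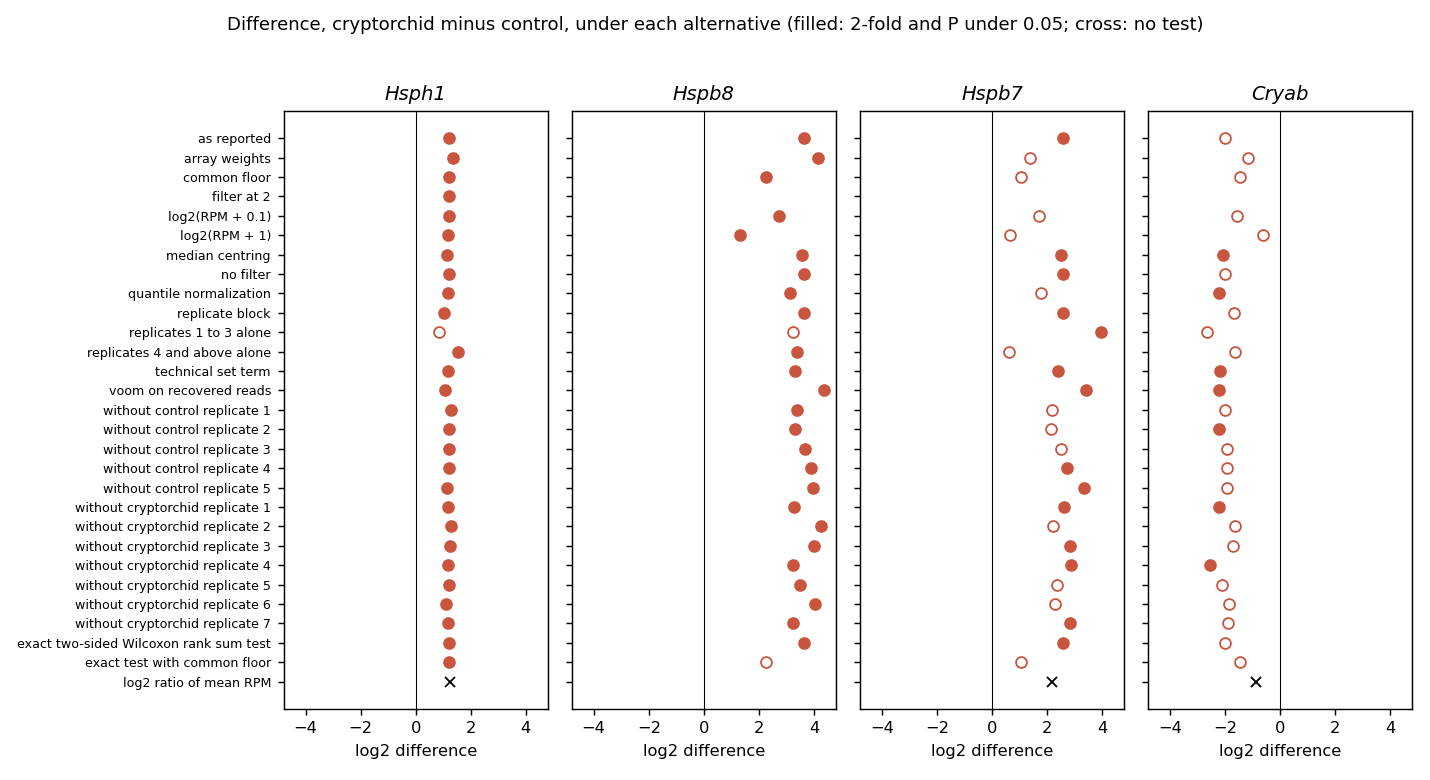
Difference in log2 RPM, cryptorchid minus control, of *Hsph1*, *Hspb8*, *Hspb7* and *Cryab* under each way of processing the values and without each library in turn, filled where the change was at least 2-fold with an unadjusted *P* under 0.05, with a cross where no test was made. *Hsph1* stays between 0.86 and 1.53 and is called in each test except in replicates 1 to 3 alone, while *Hspb7* and *Cryab* change their call in several rows.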

How the data were processed

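RNA of GFRa1+/KIT- spermatogonia was measured by Smart-seq2, which amplifies cDNA by PCR without molecular identifiers, from about 200 cells per library in 5 control and 7 cryptorchid libraries. Per the submitters' processing notes and the study's methods, reads were trimmed with Trim Galore 0.6.6, checked with FastQC 0.11.8, mapped to mm10 with HISAT2 2.1.0 and counted over protein-coding genes of the UCSC annotation in SeqMonk. The strand setting is not given in the sources used here. The authors deposited log2 RPM values, 1 column per library, and 0 columns belonged to no sample.

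Reads were recovered by scaling each library's lowest steps to whole numbers. Of the values under 1000 reads, 100% were whole within 0.02. They are not independent molecules, so read numbers and floors of 3 reads cover counting error only. Pairs of replicates differed by 12.8 to 253 times the sampling noise, so each library counted as 1 sample.

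Group means were compared with limma 3.58.1 (R 4.3.3; lmFit and trended eBayes) on the deposited values, for genes with log2 mean RPM above -1, and by an exact Wilcoxon rank sum test. On simulated data for this comparison (16909 genes), 81% of genes changed by 1.5 and 98% of those changed by 3.0 on the log2 scale were recovered. The changed genes were drawn only from more abundant genes than *Cryab*, *Hspb7* and *Hspb8*, with the spread capped below theirs. These rates do not cover such rare genes. Python 3.11.15, numpy 2.4.6, pandas 2.3.3, scipy 1.17.1 and matplotlib 3.10.9 were used. The fit had no replicate block, since the study's methods name none. Gene positions and exon lengths are from GENCODE vM21 (GRCm38).

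Alternatives were median centring, quantile normalization, log2(RPM + 1) and log2(RPM + 0.1), a filter at 2 and none, ratios of mean RPM, a common floor, array weights, voom on recovered reads with TMM factors, a replicate block, a technical set term, each set alone and each library left out. An exact test with a common floor was added after the data were seen. The members and lists were chosen with earlier results of these data known. All 10 members were named, and of each list the called genes and the most abundant one, together with the 2 genes most like each called member. *Hsf5*, *Ift80*, *P4ha1*, *Dnajb1*, *Hspa1a*, *Hspa1b*, *Sqstm1*, *Hspd1* and *Hspe1* were named outside this rule, after their values were seen.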

Additional observations from a re-analysis of the deposited data

Results flagged for a closer look

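Within the groups, 3 of 20 sets of library values had 1 library set apart by Dixon's criterion, where chance gives about 1 in 20. *Bag3* was at 2.20 log2 RPM in control replicate 1, a gap of 0.737 of the group's range to the next library, with 112 reads behind the value. *Cryab* was at -0.39 log2 RPM in control replicate 2 (gap 0.784 of the range, 22 reads). *Hspb11* was at 3.81 log2 RPM in cryptorchid replicate 3 (gap 0.663 of the range, 118 reads).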

How the results depend on the processing

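*Hsph1* kept its call in all 12 fits without 1 library (1.10 to 1.30) and its direction and, where tested, its call in 15 of 16 other alternatives, the exception being replicates 1 to 3 alone (0.86). *Hspb8* kept its call without each library (3.22 to 4.25) but not in replicates 1 to 3 alone or in the exact test with a common floor. All control values of *Hspb8* were floors in each of these fits, so the kept call rests on those floors and the differences are not folds. The number of the 10 genes called higher was 1 with a filter at 2, which *Hspb7*, *Hspb8* and *Cryab* did not pass, and 1 in replicates 1 to 3 alone, and 2 to 3 without each library; the number called lower was 1 under median centring, quantile normalization, the technical set term and voom, each time *Cryab*, and 0 to 1 without each library. Over all genes, 385 were called higher with a filter at 2 and 287 in replicates 1 to 3 alone (501 to 750 without each library), and the number called lower was 703 with array weights, 893 with the replicate block, 705 in replicates 4 and above alone, 635 with the technical set term and 657 with voom (280 to 572 without each library). Quantile normalization moved the split from 603 higher and 399 lower to 457 and 542. With the replicate number as a block, 785 genes were higher and *Hsph1* differed by 1.04 (limma adjusted *P* = 0.00334), *Odf1* by -3.36 (limma adjusted *P* = 0.00547) and *Hspa1l* by -2.34 (limma adjusted *P* = 0.0288). Same-numbered libraries deviated together with r from 0.0488 to 0.411, 4 of 5 best with their own number. Differences that were not called changed sign: *Hsf1* to -0.041 (median centring), -0.016 (quantile normalization), -0.0112 (replicates 1 to 3 alone) and -0.074 (voom), with -0.0135 to 0.0695 without each library; *Hspb1* to -0.26 (array weights), -0.32 (replicate block), -0.32 (replicates 4 and above alone) and -0.13 (set term), with -0.23 to 1.05; *Hsf2* ran from -0.23 to 0.05, *Bag3* from -0.068 to 0.48 and *Hspb11* from -0.33 to 0.087 without each library. The causes were not tested. With 3 reads in the control group and 21 in the cryptorchid group, a change of *Hsf4* was not detectable at this depth.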

Other observations

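Beyond the genes above, the markers of differentiation split. *Stra8*, which marks entry into meiosis and the response to retinoic acid, was at 5.97 ± 0.446 (SD, n = 5) in control libraries and 7.06 ± 0.671 (SD, n = 7) log2 RPM in cryptorchid libraries (limma adjusted *P* = 0.273, exact *P* = 0.0480), while the DNA methyltransferase gene *Dnmt3b* was at 7.05 ± 0.584 (SD, n = 5) and 5.84 ± 0.518 (SD, n = 7) log2 RPM (limma adjusted *P* = 0.215, exact *P* = 0.0177). *Kit*, by whose protein the cells were sorted, differed by 0.45 (limma adjusted *P* = 0.725). None of 7 immediate early genes of dissociation, none of 9 Sertoli cell markers, none of 3 Leydig cell markers tested and none of 6 spermatocyte markers tested was called. With 5.92% of all genes tested called in either direction, such short lists say little by this.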
